A study of Mus musculus with 12 samples.

Results

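The AP-1 and immediate-early genes are described here in mouse mesangial cells (MMC), across 2 genotypes and 2 culture conditions. The members were chosen by gene symbol: Fos, Fosb, Fosl1, Fosl2, Jun, Junb, Jund, Egr1, Arc and Atf3. All 10 were found among the 25230 genes counted in each of the 12 libraries. Of these, 9 were tested in the main fit, and Fosb, which lay under the expression limit in every library, was taken from a second fit that kept every gene with any count.

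The libraries are of RNA from primary MMC, grown from glomeruli of either wild-type (WT) animals or the lncMGC-KO5 (KO) line. In the KO5 line, Cas9 and a pair of guides placed around the start of lncMGC, a long non-coding RNA that hosts the miR-379 cluster, removed a short stretch of DNA from C57BL/6J embryos, and homozygotes were bred. The 4 groups, with 3 libraries each, were WT-SD and WT-TGF for one genotype and KO-SD and KO-TGF for the other. SD cells were serum-depleted and received no TGF-β, TGF cells received TGF-β at a dose of 10 ng/ml, and every library was made at 24 h. KO5 is 1 deletion line, each genotype was cultured from pooled glomeruli, and ages of mice are not given in the sources used here. The sources do not say which libraries came from separate animals, so p-values measure the spread between libraries, which may be in part technical. The files count no reads for lncMGC itself, so they hold no check of the deletion.

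AP-1 is a dimer of a Jun protein (Jun, Junb or Jund) with another Jun protein or with a Fos protein (Fos, Fosb, Fosl1 or Fosl2), joined by leucine zippers. Genes of the immediate-early class, Fos, Jun, Egr1 and Arc among them, are switched on within minutes of a stimulus through serum response factor, ETS-family and CREB-family factors that are already in the cell, and most fall back within hours. Fosl1 and Fosl2 come later and last longer. In kidney, AP-1 and Egr1 are known from TGF-β signaling and matrix genes in mesangial cells. At 24 h the libraries show what was left or sustained of the response, and the first hours were not measured.

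Of the 10 members, 7 had a promoter in the RefSeq table of GRCm38.p6, each read as the 250 bases before the start used there. For Fosb that start lies inside the gene, which begins at chr7:19310118 on the minus strand. Its window, chr7:19310046-19310295, therefore overlaps the gene. Those of Jun, Junb, Fos and Atf3 are printed because the TGF-β responses of these genes differed from each other in size or direction. Capitals mark the letters TGACG on either strand, the core of a CREB or ATF site, and in Jun the 8 letters TGACATCA, a variant of the AP-1 site.
Jun, chr4:95052223-95052472, minus strand: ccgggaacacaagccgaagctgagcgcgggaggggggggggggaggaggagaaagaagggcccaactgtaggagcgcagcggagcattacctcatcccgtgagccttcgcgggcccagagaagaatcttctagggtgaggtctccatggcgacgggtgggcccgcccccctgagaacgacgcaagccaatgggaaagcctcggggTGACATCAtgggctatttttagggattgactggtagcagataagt
Junb, chr8:84978749-84978998, minus strand: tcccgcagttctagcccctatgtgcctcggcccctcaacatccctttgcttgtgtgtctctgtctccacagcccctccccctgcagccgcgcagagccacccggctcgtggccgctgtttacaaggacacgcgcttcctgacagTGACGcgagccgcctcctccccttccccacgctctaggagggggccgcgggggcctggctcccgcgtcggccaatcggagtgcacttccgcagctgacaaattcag
Fos, chr12:85473640-85473889, plus strand: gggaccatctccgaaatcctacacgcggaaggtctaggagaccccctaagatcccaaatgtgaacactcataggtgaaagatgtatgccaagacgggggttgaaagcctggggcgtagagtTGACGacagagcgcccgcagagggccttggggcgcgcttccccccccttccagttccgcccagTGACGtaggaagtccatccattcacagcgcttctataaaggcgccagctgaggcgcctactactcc
Atf3, chr1:191183334-191183583, minus strand: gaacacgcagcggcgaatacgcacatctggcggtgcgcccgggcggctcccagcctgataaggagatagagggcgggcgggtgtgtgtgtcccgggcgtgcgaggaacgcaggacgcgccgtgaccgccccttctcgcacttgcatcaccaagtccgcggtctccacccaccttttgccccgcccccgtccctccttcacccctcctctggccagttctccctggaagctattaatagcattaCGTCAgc
In Jun the TGACATCA began 45 bases before the start. TGACG began 106 bases before the start in Junb and 129 and 66 bases before it in Fos, and its reverse complement CGTCA began 7 bases before it in Atf3. Fosb held TGACG 60 bases before the start used for its window, a place within the gene, and Fosl2 and Jund held neither motif. TGACG was in 17.8% of all 32851 promoters of this length and TGACATCA in 2.93%. The consensus AP-1 site TGANTCA (6.75% of promoters), the full CREB site TGACGTCA (1.55%), the serum response element or CArG box (1.47%) and the Egr1 site GCGTGGGCG (0.536%) were in none of the 7 windows, in which TGACG can lie within TGACGTCA but not within TGACATCA. The motifs were chosen with the sequences in view, and a match describes letters only. Bases beyond these 250 were not read, so a motif absent from a window can lie farther upstream.

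The libraries had between 19898050 and 22827706 counts on genes. With TMM scaling, the median gene differed between any of the compared groups by at most 0.03 on the log2 scale. With library size alone the median moved by -0.16 for TGF-β in WT, -0.20 for TGF-β in KO, -0.08 for KO against WT in SD and -0.12 in TGF-β. Under that scaling KO-TGF against WT-TGF had 1643 genes called higher and 5408 lower, where TMM gave 3142 and 3201. For TGF-β in WT the numbers were 2642 and 6056, where TMM gave 4152 and 4198, and for TGF-β in KO they were 2298 and 6716, where TMM gave 4028 and 4512. For KO against WT in SD they were 2445 and 4193, where TMM gave 3566 and 2908. Of markers fixed for the cells a glomerular culture can hold, all 8 mesangial and smooth muscle markers were detected in every group. The endothelial markers summed to at most 1.01 CPM (counts relative to library size, with sizes scaled by TMM). Of the 7 tubular markers, 4 were above the floor of 3 counts in each group, led by Pax8 at 63.3 to 243 CPM, and Slc34a1 and Umod were at 0 in every library.

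Counted together, 6 of the 9 members tested were called higher with TGF-β in WT, where 36.0% of all genes were called higher, and 0 were called lower, where 36.4% of all genes were (edgeR, FDR <5%). The number lower was also 0 at an unadjusted p under 0.05 and with DESeq2, and 1 (Jund) with library size alone. Of the 6 called higher in WT, 4 (Fosl1, Junb, Egr1 and Arc) had a fold change above 2, reached by 4.15% of genes. Arc, counted as higher in both genotypes, passed the expression limit only in its TGF-β libraries, so the filter favoured its rise. In KO, 7 members were called higher and 1 (Fos) lower, where 34.9% and 39.1% of genes were. The number lower was 0 with DESeq2, when only these groups were fitted and without KO-SD replicate 1 or 2 or KO-TGF replicate 2, and 3 with library size alone. In KO, 2 members (Fosl1 and Junb) had a fold change above 2, where 4.38% of genes did. The libraries of the compared groups did not overlap for 8 of 9 members in WT and 8 of 9 in KO, against 75.1% and 74.3% of genes. Over the 9 members the median log2 fold change was 0.93 in WT and 0.89 in KO, against -0.005 and -0.03 over all genes. The 2 TGF-β responses have no control libraries in common.

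**Figure D1:**
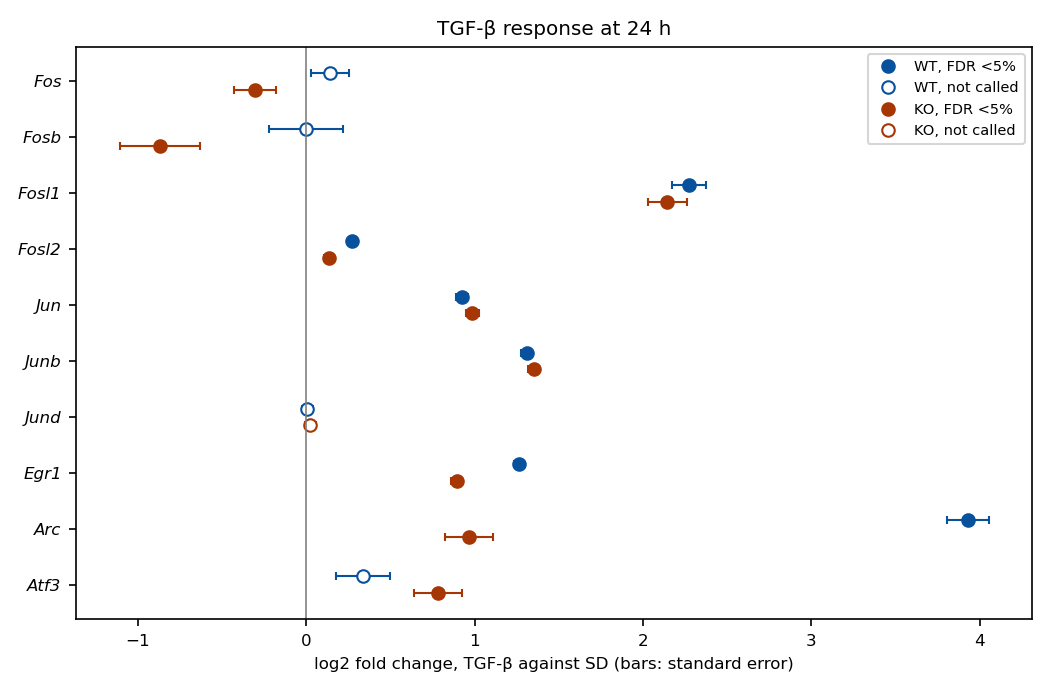
Log2 fold change of each member with TGF-β at 24 h, WT in blue and KO in red-brown, with bars for the standard error and filled points for FDR <5%. For each of Fosl1, Jun and Junb the points of WT and KO lie close to each other, Arc lies at 3.93 in WT and 0.96 in KO, and Fosb is taken from the wider fit.

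In SD, 5 of the 9 members (Fosl1, Fosl2, Jun, Junb and Jund) were lower in KO than in WT, where 25.2% of all genes were, and 1 (Arc) was higher, where 30.9% were. With TGF-β, 8 members were lower in KO and 1 (Atf3) was higher, against 27.8% and 27.3% of genes, and only Arc had a fold change above 2, in a direction in which 4.68% of genes did. Libraries of the genotypes did not overlap for 7 of 9 members in SD and 9 of 9 with TGF-β, against 59.2% and 61.5% of genes. The median differences were -0.15 and -0.38, against 0.02 and -0.004 over all genes. The interaction is the response in KO minus that in WT. A more negative response can be a smaller rise, as for the members called here, or a larger fall. In KO, 3 members (Fosl2, Egr1 and Arc) had a more negative response and 0 a more positive one. Of all genes, 16.6% and 8.67% did (edgeR, FDR <5%). At an unadjusted p under 0.05 the numbers were 4 and 1, and with DESeq2 3 and 0. Arc was the only one of the 3 with a fold difference above 2, which 2.39% of genes had in that direction, and it was tested only through its TGF-β libraries, as described with its values.

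**Figure D2:**
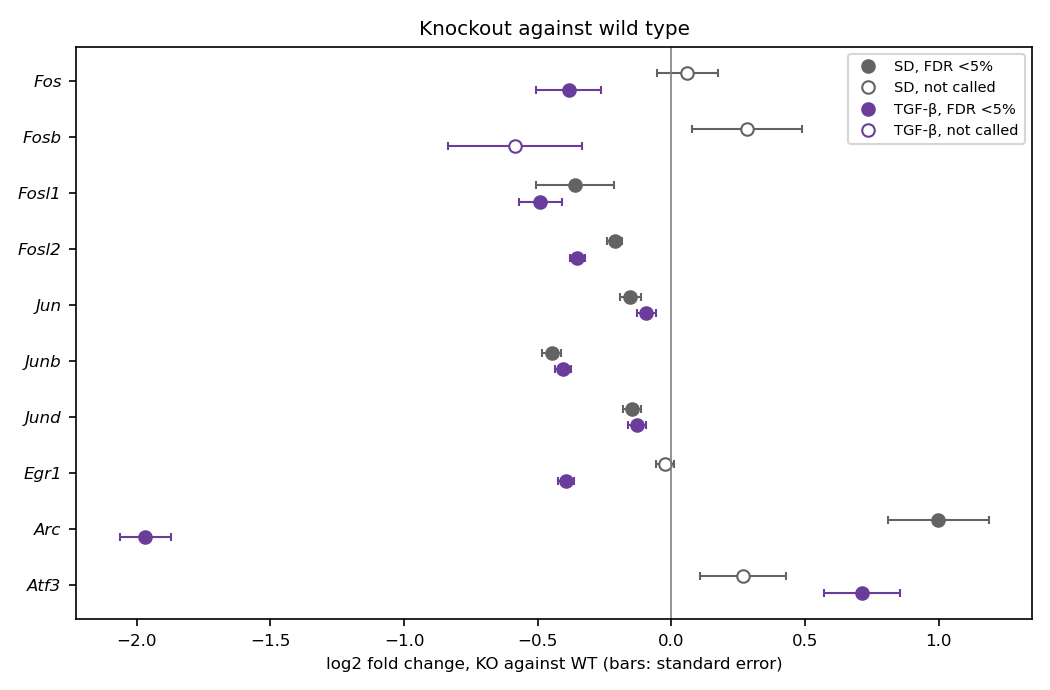
Log2 difference of each member between KO and WT, in SD (grey) and in TGF-β (purple), with bars for the standard error and filled points for FDR <5%. Arc lies above 0 in SD and at -1.97 in TGF-β, and Junb, Jun and Jund lie at about the same place in both conditions.

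Markers of other cells moved with the groups. The 8 macrophage markers summed to 35.5 to 39.3 CPM in WT-SD, 19.0 to 22.6 in WT-TGF, 8.13 to 9.77 in KO-SD and 2.35 to 2.68 in KO-TGF, and Adgre1 was at 0 in all KO libraries. Markers of mesangial and smooth muscle cells, contractile genes among them, summed to 2526 to 2669 CPM in WT-SD, 5663 to 5829 in WT-TGF, 4867 to 5033 in KO-SD and 10710 to 10796 in KO-TGF. Acta2 and Tagln made up most of these sums, while Des was at 7.10 to 8.76 CPM in WT-SD and 0.505 to 0.551 in KO-SD, and Itga8 was lower in the TGF-β libraries of both genotypes (0.588 to 1.87 CPM) than in the others (2.64 to 3.45 CPM). Podocyte markers summed to 439 to 465 CPM in the WT groups and 203 to 222 in the KO groups, and tubular markers to 309 to 322 CPM in WT without TGF-β and 132 to 145 with it, and to 171 to 187 and 67.5 to 70.0 CPM in KO. The part of these cells in the members' levels was not tested, and fewer cells of a type and less RNA per cell cannot be told apart in such libraries. Genotype and culture cannot be told apart either, since each genotype is a culture of its own.

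Among the Jun genes, Jun and Junb rose with TGF-β in both genotypes, and Jund was not called. Junb, which restrains Jun in some settings and replaces it in others, was at 84.0, 79.8 and 82.0 CPM in the WT-SD libraries and at 200, 202 and 207 CPM in the WT-TGF libraries. The KO-SD libraries were at 57.8, 60.7 and 61.8 CPM and the KO-TGF libraries at 155, 149 and 156 CPM. The 4 groups did not overlap, in the order WT-TGF, KO-TGF, WT-SD, KO-SD. Junb rose 2.48-fold in WT (log2 fold change 1.31 ± 0.03, SE, adjusted p = 1.27e-25) and 2.55-fold in KO (1.35 ± 0.03, adjusted p = 3.06e-25). The responses of the genotypes differed by 0.04 on the log2 scale (95% confidence interval -0.05 to 0.14, adjusted p = 0.580). In level Junb was lower in KO, with a log2 difference of -0.45 in SD (adjusted p = 3.15e-12) and -0.41 in TGF-β (adjusted p = 6.94e-13).

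Jun, a transactivating subunit of AP-1, was at 67.3, 65.2 and 63.5 CPM in WT-SD and at 128, 121 and 123 CPM with TGF-β in WT. In KO-SD it was at 58.2, 60.2 and 57.8 CPM, and with TGF-β in KO at 118, 120.1 and 111 CPM. Treated and untreated libraries lay far apart, and the genotypes lay close to each other in both conditions. It rose 1.90-fold in WT (adjusted p = 5.79e-20) and 1.98-fold in KO (adjusted p = 2.28e-20), and the responses differed by 0.06 (95% confidence interval -0.05 to 0.17, adjusted p = 0.468). Jun was lower in KO than in WT, with a log2 difference of -0.15 in SD (adjusted p = 0.00160) and -0.09 in TGF-β (adjusted p = 0.0252). The second of these calls was lost with DESeq2 (adjusted p = 0.107), with the size factors of DESeq2 (0.0601), with no filter on low expression (0.0559), and without WT-TGF replicate 1 (0.130) or KO-TGF replicate 1 (0.0892) or 3 (0.343).

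Jund, which is expressed steadily in many resting cells, was at 160 ± 5.02 CPM (SD, n = 3) in WT-SD, 161 ± 1.72 in WT-TGF, 145 ± 6.99 in KO-SD and 147 ± 5.98 in KO-TGF. Treated and untreated libraries overlapped in both genotypes. Its log2 fold change with TGF-β was 0.005 in WT (adjusted p = 0.905) and 0.02 in KO (adjusted p = 0.531), but with library size alone it was -0.15 (adjusted p = 0.000132) and -0.18 (adjusted p = 2.25e-05). The KO libraries were lower than the WT libraries, by a log2 difference of -0.15 in SD (adjusted p = 0.000396) and -0.13 in TGF-β (adjusted p = 0.00199), the latter lost without KO-TGF replicate 2 (adjusted p = 0.0860).

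**Figure D3:**
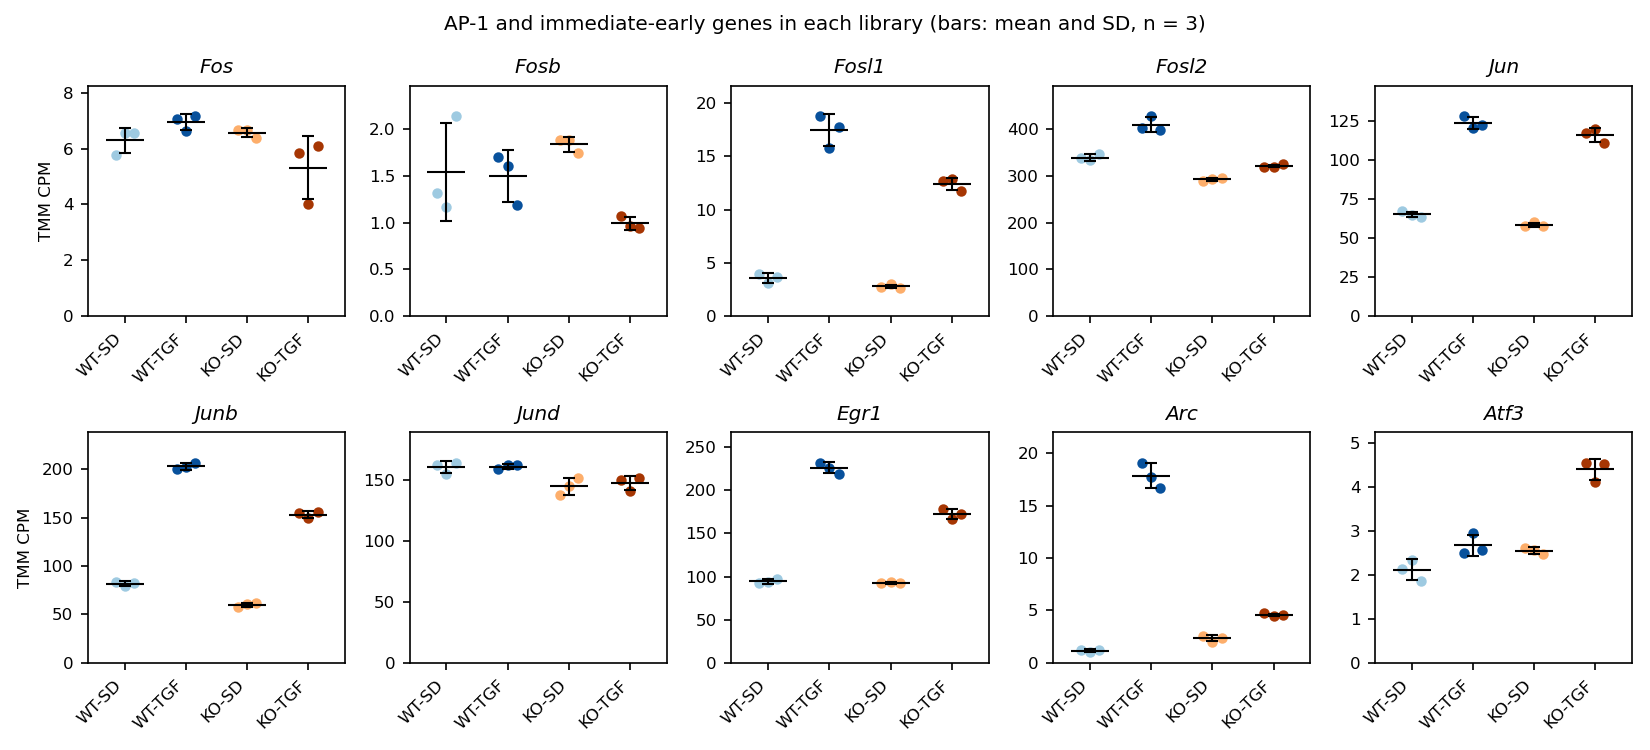
Levels of the 10 members in each of the 12 libraries, in TMM CPM on a linear axis from 0, with each point 1 library and bars for the mean and SD of 3 libraries per group. Jun, Junb, Egr1 and Fosl1 stand apart with TGF-β in both genotypes, Arc reaches 16.7 to 19.1 CPM only in WT-TGF, and Atf3 is highest in KO-TGF.

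Among the Fos genes, Fosl1 had the largest response. Fosl1, or Fra-1, which lacks the transactivating part of Fos and is itself switched on by AP-1, was at 4.00, 3.12 and 3.69 CPM in the WT-SD libraries and at 18.8, 15.8 and 17.8 CPM in the WT-TGF libraries. The KO-SD libraries were at 2.76, 2.99 and 2.66 CPM and the KO-TGF libraries at 12.6, 12.8 and 11.7 CPM. No libraries of different groups overlapped. Fosl1 rose 4.84-fold in WT (log2 fold change 2.27 ± 0.10, SE, adjusted p = 6.03e-19) and 4.42-fold in KO (2.14 ± 0.12, adjusted p = 9.04e-17). The difference between the responses was -0.13 (95% confidence interval -0.47 to 0.21, adjusted p = 0.638). In level the KO-TGF libraries were 1.41-fold below the WT-TGF libraries (adjusted p = 5.26e-06). The lower level in KO-SD than in WT-SD (log2 difference -0.36, adjusted p = 0.0358) rests on 58 to 88 counts a library and was lost with no filter (adjusted p = 0.0567) and without WT-SD replicate 1 (0.152), WT-SD replicate 3 (0.0798), KO-SD replicate 1 (0.0724) or KO-SD replicate 3 (0.0993).

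Fosl2, or Fra-2, the most expressed Fos gene here, was at 337, 333 and 346 CPM in WT-SD and, with TGF-β, at 402, 427 and 398 CPM. In KO-SD it was at 289, 293 and 296 CPM, and with TGF-β at 318, 319 and 324 CPM. Every KO-TGF library was below every WT-SD library. With TGF-β it rose 1.21-fold in WT (log2 fold change 0.27 ± 0.03, SE, adjusted p = 1.65e-10) and 1.10-fold in KO (0.13 ± 0.03, adjusted p = 6.95e-05). The rise in KO depends on the scaling, since with library size alone Fosl2 was lower in KO-TGF than in KO-SD (-0.07, adjusted p = 0.0183). Fosl2 was lower in KO in SD (-0.21, adjusted p = 6.23e-08) and in TGF-β (-0.35, adjusted p = 1.39e-12). Its response was smaller in KO, by a log2 difference of -0.14 (adjusted p = 0.00631), a call that was lost without any one KO-TGF library (adjusted p = 0.104, 0.0993 and 0.0567 without replicates 1, 2 and 3).

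Fos, the first and most short-lived of the family, was low at 24 h, with 75 to 151 counts a library. It was at 5.77, 6.55 and 6.55 CPM in WT-SD and at 7.04, 6.64 and 7.16 CPM with TGF-β, and in KO at 6.66, 6.66 and 6.38 CPM in SD and at 5.84, 4.01 and 6.10 CPM with TGF-β. KO-TGF replicate 2 was the lowest of all 12 libraries. In WT the log2 fold change with TGF-β was 0.14 (95% confidence interval -0.09 to 0.37, adjusted p = 0.268). In KO, Fos was called lower (log2 fold change -0.30, adjusted p = 0.0284), but not without KO-TGF replicate 2 (-0.12, adjusted p = 0.384), without KO-SD replicate 1 (adjusted p = 0.0503) or replicate 2 (0.0569), with DESeq2 (0.0762), or when only these groups were fitted (0.0596). The difference between KO-TGF and WT-TGF was -0.38 (adjusted p = 0.00868), and without KO-TGF replicate 2 it was -0.20 (adjusted p = 0.158). The responses differed by -0.44 (adjusted p = 0.0512), which was called with library size alone (0.0267), with the CPM filter (0.0484), with no filter (0.0263) and without KO-TGF replicate 3 (0.0348). Without KO-TGF replicate 2 the difference was -0.24 (adjusted p = 0.296).

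Fosb, which is best known from neurons, had 18 to 47 counts a library and stayed under 1 RPKM (CPM per kilobase of exon) in all of them. It was at 1.32, 1.17 and 2.14 CPM in WT-SD and at 1.70, 1.61 and 1.19 CPM with TGF-β, and in KO at 1.88, 1.88 and 1.74 CPM in SD and at 1.07, 0.963 and 0.946 CPM with TGF-β. The WT libraries overlapped between conditions and the KO libraries did not. In the fit of all 18565 genes counted at least once, Fosb fell by 0.87 on the log2 scale in KO (adjusted p = 0.000702), where 28.5% of genes were called lower, and in WT its log2 fold change was -0.002 (adjusted p = 1). The responses differed by -0.87 (adjusted p = 0.0456), where 12.5% of genes had a more negative response in KO. This difference was not called with DESeq2 (adjusted p = 0.294) or with its size factors (0.0677). KO-TGF differed from WT-TGF by -0.58 (adjusted p = 0.0505), called with library size alone (0.0112), when only these groups were fitted (0.0440) and without any 1 of 6 libraries, with adjusted p between 0.0223 and 0.0489, but with DESeq2 the adjusted p was 0.199.

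Per exon length, the make-up of both families differed between treated and untreated cells. Fosl2 made up 88.2% ± 0.287 (SD, n = 3) of the summed RPKM of the 4 Fos genes in WT-SD and 78.2% ± 1.84 in WT-TGF, and in KO 87.1% ± 0.474 and 79.5% ± 0.717. Fosl1 made up 4.46% ± 0.519 in WT-SD, 15.9% ± 1.57 in WT-TGF, 3.98% ± 0.236 in KO-SD and 14.7% ± 0.829 in KO-TGF. The ranges of treated and untreated libraries did not overlap for either gene, and Fos made up between 4.14% and 8.25% in every library. Among the Jun genes, Jund made up 63.1% ± 0.676 in WT-SD and 43.1% ± 0.387 in WT-TGF, Junb 23.4% ± 0.225 and 39.5% ± 0.408, and Jun 13.5% ± 0.469 and 17.4% ± 0.605. In KO, Jund made up 66.1% ± 0.717 and 46.1% ± 0.974, Junb 19.9% ± 0.107 and 34.8% ± 0.120, and Jun 14.0% ± 0.610 and 19.1% ± 1.08. Whether Jund or Junb was the more abundant with TGF-β depends on the gene length used. With the length of the RefSeq gene (2878 bases for Jund and 1840 for Junb, against 1668 and 2301 bases of exons in GENCODE), Junb made up 53.8% and Jund 27.2% in WT-TGF. The shares are a description of the same counts and were not tested.

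**Figure D4:**
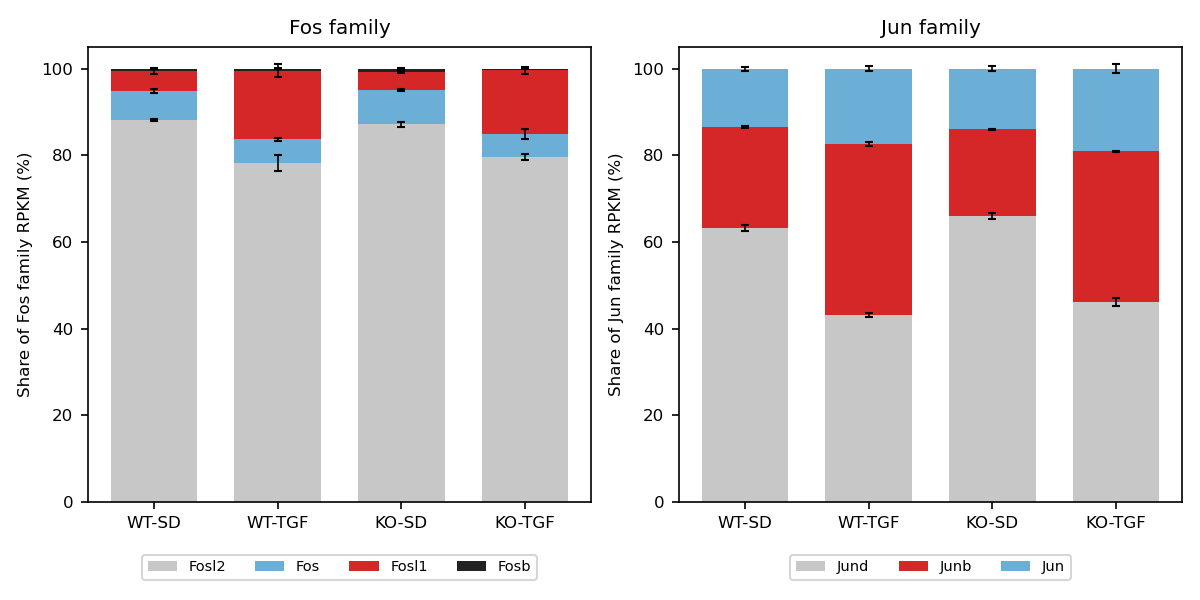
Share of each gene in the summed RPKM of the Fos family (left) and the Jun family (right), in percent, with stacked bars for the mean of 3 libraries per group and error bars for the SD of each share. With TGF-β the Fosl1 share is larger and the Fosl2 share smaller, and the Junb share larger and the Jund share smaller, in both genotypes.

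The other 3 members, Egr1, Arc and Atf3, are not of the Jun and Fos families, and Egr1 and Arc had smaller responses in KO. Egr1, a zinc-finger activator, was at 91.9, 93.8 and 96.9 CPM in the WT-SD libraries and at 232, 226 and 219 CPM in the WT-TGF libraries. The KO-SD libraries were at 92.0, 94.1 and 92.0 CPM and the KO-TGF libraries at 178, 166 and 172 CPM. The SD libraries of the genotypes overlapped, and both TGF groups lay above them and apart from each other. Egr1 rose 2.40-fold in WT (log2 fold change 1.26 ± 0.03, SE, adjusted p = 1.91e-25) and 1.86-fold in KO (0.89 ± 0.03, adjusted p = 2.85e-21). The response was smaller in KO, by a log2 difference of -0.37 (adjusted p = 1.18e-07). KO-SD differed from WT-SD by -0.02 (95% confidence interval -0.09 to 0.04, adjusted p = 0.564), called lower with library size alone (-0.10, adjusted p = 0.0120), and KO-TGF was 1.31-fold lower than WT-TGF (adjusted p = 9.79e-13).

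Arc, an immediate-early gene whose protein forms capsid-like particles at synapses and which is a known target of serum response factor, gave the largest difference in response between the genotypes among the members. It was at 1.23, 1.04 and 1.23 CPM in WT-SD (24 to 27 counts) and at 19.1, 17.7 and 16.7 CPM in WT-TGF (338 to 404 counts). In KO-SD it was at 2.57, 2.03 and 2.39 CPM (42 to 56 counts), and in KO-TGF at 4.71, 4.44 and 4.52 CPM (83 to 88 counts). The groups did not overlap, and KO cells were above WT cells without TGF-β and below them with it. Arc rose 15.3-fold in WT (log2 fold change 3.93 ± 0.12, SE, adjusted p = 8.92e-23), the change ranked 30 of 11530 genes from the largest increase, and 1.95-fold in KO (0.96 ± 0.14, adjusted p = 5.10e-07). The response in KO was smaller, by a log2 difference of -2.97 (95% confidence interval -3.40 to -2.53, adjusted p = 2.17e-12), ranked 18 of 11530 from the most negative. Arc was 1.999-fold higher in KO-SD than in WT-SD (adjusted p = 3.72e-05) and with TGF-β 3.91-fold lower in KO (adjusted p = 2.44e-17). It passed the limit of 1 RPKM only in the 6 TGF-β libraries, 3 of each genotype. A gene tested through its high groups had to differ between TGF-β and SD. The limit did not by itself fix the difference between the genotypes.

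Atf3, a stress-induced bZIP factor that pairs with Jun proteins and can repress, was highest in KO-TGF. It was at 2.14, 2.34 and 1.87 CPM in WT-SD and at 2.51, 2.94 and 2.57 CPM with TGF-β, and in KO at 2.62, 2.56 and 2.48 CPM in SD and at 4.55, 4.12 and 4.52 CPM with TGF-β. The KO-TGF libraries lay above all others, and WT-TGF overlapped with KO-SD. Atf3 rose 1.72-fold in KO (log2 fold change 0.78 ± 0.14, SE, adjusted p = 1.42e-05). In WT the log2 fold change was 0.34 (95% confidence interval 0.01 to 0.67, adjusted p = 0.0596), called with a CPM filter (adjusted p = 0.0443) and without WT-SD replicate 2 (0.0419). It was 1.64-fold higher in KO-TGF than in WT-TGF (adjusted p = 7.98e-05), and in SD the difference was 0.27 (adjusted p = 0.164). The responses differed by 0.45 (95% confidence interval 0.004 to 0.89, adjusted p = 0.138). These values rest on 41 to 86 counts a library.

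Genes that neighbour the members in the pathway were counted as lists. Of the 24 kinases and factors upstream of AP-1 and the immediate-early genes, 23 were tested. With TGF-β 11 were called higher and 7 lower in WT, and 12 and 7 in KO, where 36.0% and 36.4% of all genes were in WT and 34.9% and 39.1% in KO, but with library size alone the numbers were 7 and 12 in WT and 4 and 14 in KO. Elk3, an ETS-family partner of serum response factor, had log2 fold changes of 0.91 in WT and 0.74 in KO, and Srf, serum response factor itself, rose by 0.70 in WT. Map2k6, a kinase that activates p38 but not the only one on the list, fell from 6.77 ± 0.442 CPM to 1.77 ± 0.235 CPM with TGF-β in WT (SD, n = 3). In KO it fell from 8.52 ± 0.729 CPM to 1.14 ± 0.110 CPM. Rps6ka5, or MSK1, which phosphorylates CREB and histone H3 at immediate-early promoters, fell by 1.25 (WT) and fell by 1.57 (KO), log2 scale. Between the genotypes, Srf had log2 differences of 0.38 in SD and 0.27 in TGF-β, higher in KO, and Elk3 one of -0.26 in TGF-β. For the interaction 0 had a more positive response in KO and 3 a more negative one (edgeR, FDR <5%), against 8.67% and 16.6% of all genes. The number more negative lies near that share. The numbers were 2 and 6 at an unadjusted p under 0.05, 1 and 2 with DESeq2, 0 and 6 with library size alone, and 1 and 1 without KO-TGF replicate 2. With each other library left out they lay between 0 and 2 and between 2 and 4. In Map2k6 (-0.97 ± 0.24, SE, adjusted p = 0.00243) the fall was larger in KO.

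Of 43 other immediate-early genes, 39 were tested, and 29 were called higher and 6 lower with TGF-β in WT and 29 and 8 in KO, against 36.0% and 36.4% of all genes in WT and 34.9% and 39.1% in KO. Their median log2 fold changes were 0.75 and 0.80, close to those of the members. Egr2, a relative of Egr1, went in WT from 8.90 ± 0.833 CPM up to 111 ± 1.69 (SD, n = 3, log2 fold change 3.64) and in KO from 10.5 ± 0.585 to 126 ± 2.66 CPM (log2 fold change 3.58). Ptgs2, the inducible cyclooxygenase, rose by 2.75 in WT and by 2.80 in KO, and was higher in KO by 0.95 in SD and by 0.997 in TGF-β, log2 scale. Zfp36l1, which destabilizes mRNA, fell by 1.11 in WT, and in KO it fell by 1.58 and its relative Zfp36l2 fell by 1.28. Sik1, a salt-inducible kinase, fell by 1.20 in WT. KO-SD against WT-SD had 17 higher and 14 lower (30.9% and 25.2% of all genes), and KO-TGF against WT-TGF 14 and 12 (27.3% and 27.8%), and with library size alone the numbers higher were 10 and 6. For the interaction 7 had a more positive and 12 a more negative response in KO, against 8.67% and 16.6% of all genes. Klf2, a Krüppel-like factor, was at 4.78 ± 0.512 and 7.40 ± 0.354 CPM in WT (SD cells, then TGF cells) and at 12.3 ± 0.833 and 8.60 ± 0.218 CPM in KO (SD, n = 3), and its response differed by -1.14 between KO and WT (adjusted p = 1.16e-07). That of Myc, a regulator of growth, differed by -0.50 (adjusted p = 2.39e-05), and that of Nr4a2, an orphan nuclear receptor, by 0.67 (adjusted p = 0.00149). For Dusp6, the ERK phosphatase, the log2 difference between KO-TGF and WT-TGF was -0.95.

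Of 18 genes listed as AP-1 targets, 17 were tested, and with TGF-β 11 were called higher and 6 lower in WT and the same numbers in KO, where 36.0% and 36.4% of all genes were in WT and 34.9% and 39.1% in KO. The numbers lower lie near those shares. Hbegf, an EGF-family ligand, rose by 2.69 in WT on the log2 scale. The matrix metalloproteinases on the list moved apart from each other. Mmp13, a collagenase, was at 17.98 ± 1.46 and 12.1 ± 1.09 CPM in WT, without and with TGF-β, and at 29.5 ± 4.19 and 3.38 ± 0.370 CPM in KO, and its response differed by -2.56 between KO and WT (adjusted p = 8.77e-14). Mmp9, a gelatinase, was at 1.02 ± 0.361 and 1.75 ± 0.0899 CPM in WT and at 0.438 ± 0.131 and 9.36 ± 0.956 CPM in KO (SD, n = 3). Its response was larger in KO by 3.62 (adjusted p = 3.86e-09). Only its KO-TGF mean reached the 5 CPM needed for naming, so Mmp9 was named through its high group, which favoured this difference. Mmp3, or stromelysin, had a response that differed by -1.29 (adjusted p = 4.68e-06), and Ccnd1, the G1 cyclin, had a log2 difference of -1.01 between KO-TGF and WT-TGF. In all, 5 targets had a more positive and 7 a more negative response in KO, against 8.67% and 16.6% of all genes. The 7, which include the larger falls of Mmp13 and Mmp3 in KO, became 4 without KO-TGF replicate 2 or replicate 3.

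All 8 stress-response partners of Atf3 were tested, and with TGF-β all 8 were higher in KO than in WT, where 27.3% of genes were, and 7 of 8 were in SD, where 30.9% were. The median difference was 0.71 in TGF-β and 0.61 in SD, against -0.004 and 0.02 over all genes. Trib3, a pseudokinase induced by ATF4 and CHOP, was at 10.1 ± 0.0433 and 21.9 ± 1.91 CPM in WT, without and with TGF-β, and at 35.0 ± 3.06 and 60.5 ± 2.77 CPM in KO (SD, n = 3). Chac1, which degrades glutathione, was at 7.58 ± 0.631 and 16.9 ± 1.95 CPM in WT and at 15.5 ± 0.960 and 37.8 ± 1.83 CPM in KO. Unlike Trib3 and Chac1, Atf3 was not called higher in KO-SD (log2 difference 0.27, adjusted p = 0.164). Among the partners, Ppp1r15a was not called there either (-0.08, adjusted p = 0.175). With TGF-β 6 of the 8 were called higher in each genotype, where 36.0% of all genes were in WT and 34.9% in KO. In WT 2 (Sesn2 and Ddit3) were called lower, where 36.4% of genes were, and in KO 0 were, where 39.1% were. The number lower in WT was 1 with no filter and without WT-SD replicate 2 or WT-TGF replicate 3. For the interaction 3 had a more positive and 3 a more negative response in KO, where 8.67% and 16.6% of all genes did. Ppp1r15a, or GADD34, which lets translation resume after stress, had a log2 difference of 0.35 (adjusted p = 0.000137) and Asns, asparagine synthetase, one of 0.21, while Trib3 had one of -0.33 (adjusted p = 0.0111) and Atf5, a relative of ATF4, one of -0.20. Without KO-TGF replicate 1 the number with a more negative response was 1.

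**Figure D5:**
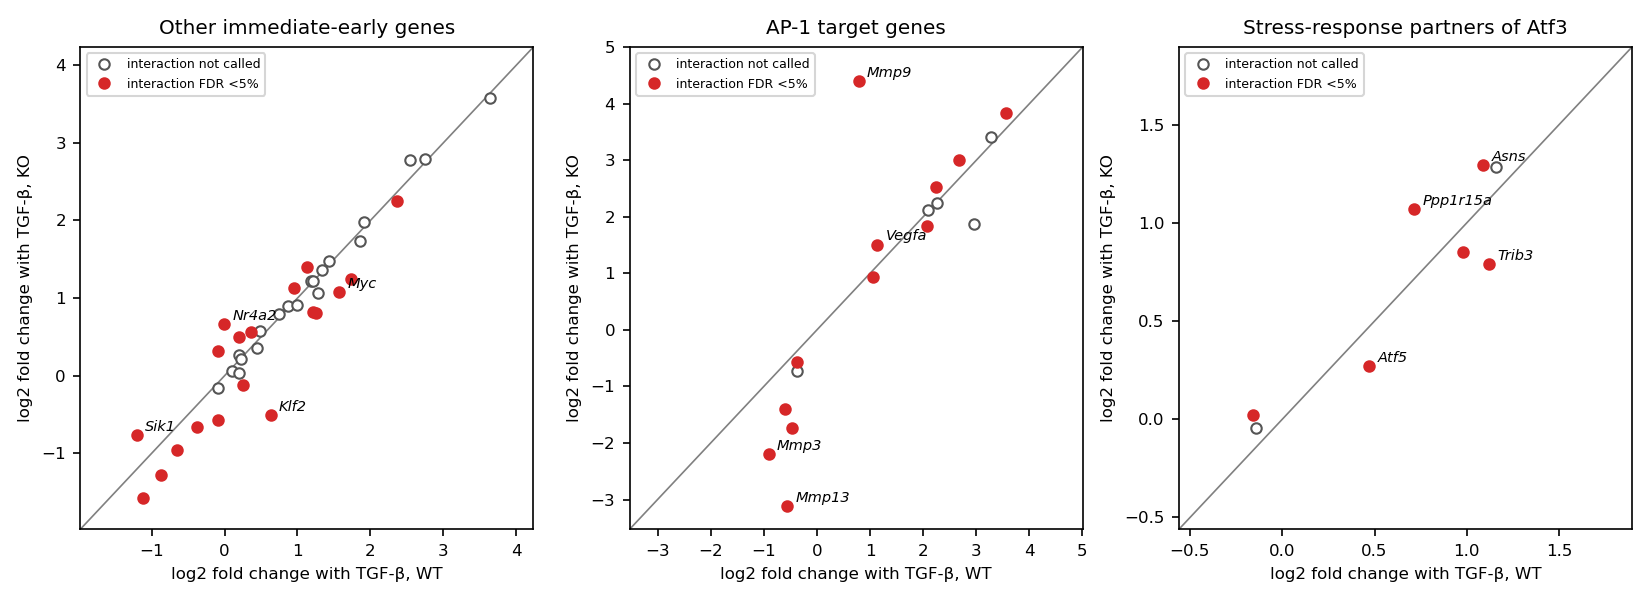
Log2 fold change with TGF-β in WT (horizontal) and in KO (vertical) of each tested gene of 3 lists, with the line of equal response and filled points for an interaction at FDR <5%. Most immediate-early genes lie near the line, Mmp9 lies above it and Mmp13 below it, and the partners of Atf3 lie on both sides.

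Of 13 other AP-1 and related bZIP genes, 8 were tested. The small Maf proteins, which lack an activating domain and pair with other bZIP factors, rose with TGF-β: Maff by 1.07 in WT and 1.71 in KO, and Mafk by 1.04 and 1.01. Maf, a large Maf factor, fell by 0.81 in WT and fell by 1.36 in KO, on the log2 scale. In all, 3 were called higher and 4 lower with TGF-β in WT (36.0% and 36.4% of all genes), and 3 and 5 in KO (34.9% and 39.1%), so the numbers higher lie near the share over all genes. In KO the 5 became 3 with DESeq2 and without the first KO-SD library or KO-TGF replicate 1 or 3. KO-SD against WT-SD had 2 higher (Jdp2 and Atf2) and 2 lower, against 30.9% and 25.2% of all genes. The 2 higher became 1 with library size alone, with DESeq2 or its size factors, when only these groups were fitted, and without WT-SD replicate 1 or 2, KO-SD replicate 1 or any one KO-TGF library. KO-TGF against WT-TGF had 1 higher (2 without WT-TGF replicate 1) and 4 lower, against 27.3% and 27.8% of all genes. The interaction had 1 and 1 (Maff at 0.64 and Maf at -0.56), against 8.67% and 16.6% of all genes.

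The genes with patterns most like those of 3 members were found by Pearson's r of log2 CPM over the 12 libraries, which share the 4 groups, so the values only describe. For Fosl1 these were Jag1 (r = 0.996), Loxl1 (0.994) and Nuak2 (0.994). Jag1, a Notch ligand, was at 327 and 1272 CPM in WT, without and with TGF-β, and at 274 and 946 CPM in KO. For Egr1 they were 1600027J07Rik (0.997), Elk3 (0.997) and Nrip1 (0.995), and for Atf3 Tnfaip1 (0.975), Dcbld2 (0.971) and Dsp (0.970). Among the members, Fosl1 went with Jun, Junb and Egr1 (r = 0.99 each), and Fos had an r of -0.13 with Fosl1 and -0.02 with Egr1.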

How the data were processed

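RNA-seq was analysed from 12 libraries of mouse mesangial cells in 4 groups of 3. The authors used TopHat for alignment to mm10 and HTSeq for counting on RefSeq genes in the strand-specific mode, and deposited raw counts per gene. Reads outside exons (10.3% to 15.4% of a library), with several alignments (11.2% to 11.7%) or on overlapping genes (0.225% to 0.274%) were left out of library sizes and tests. Libraries had 19898050 to 22827706 counts on genes, and 3 counts were at most 0.161 CPM.

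Following the methods of the paper, counts were scaled by TMM, and 11530 genes with RPKM >1 in at least 1 library were tested (exon lengths from GENCODE vM21, found for 24717 of 25230 genes). edgeR 4.0.16 (R 4.3.3) was used with the quasi-likelihood test, 1 mean per group in 1 fit of 12 libraries, and Benjamini-Hochberg adjustment over all genes tested. Every adjusted p-value is from this fit unless another is named, and calls are at FDR <5%. Errors of log2 fold changes are SE, and confidence intervals are at 95%. The exact permutation test of 3 against 3 libraries cannot go below p = 0.1 and was not used. Coordinates are those of RefSeq genes in GRCm38.p6, the assembly of mm10. Scripts were tested on simulated data.

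The members, lists and markers were chosen with earlier results of these data known. Named genes are all members and, from each list and comparison, up to 2 called genes with the largest positive and 2 with the largest negative change and 5 CPM or more, as a mean, in whichever group was higher. Some genes that this rule names are not reported here. Alternatives were library size alone, size factors of DESeq2, DESeq2 1.42.0, no filter, a CPM filter (>1 in 3 or more libraries), only the groups compared, a replicate block, and each library left out. Adjusted p-values under another setting are named with it.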

Additional observations from a re-analysis of the deposited data

Results flagged for a closer look

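The TGF-β response differed between the genotypes, by a test of the interaction itself (edgeR's quasi-likelihood test, Benjamini-Hochberg adjusted p under 0.05), for 4 members, each with a more negative response in KO. The difference in log2 fold change, KO minus WT, was -2.97 for Arc, from responses of 3.93 in WT and 0.96 in KO, and it lay between -3.05 and -2.89 with each library left out. Arc passed the expression limit only in its 6 TGF-β libraries, so it was tested through its high groups, and with no filter the difference had the same sign and was also called. For Egr1 it was -0.37, and between -0.392 and -0.305 with each library left out. For Fosl2 it was -0.14, not called without any one KO-TGF library. For Fosb it was -0.87, from 18 to 47 counts a library, and it was not called without 9 of the 12 libraries in turn.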

How the results depend on the processing

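Of 930 values of the members under alternative settings, 861 kept their direction and their side of the threshold, 32 lost a call, 18 gained one and 19 changed sign. For 30 of the 50 pairs of member and comparison every alternative gave the same direction and call. With library size alone, which lowers the median of all genes in TGF-β and KO libraries, the genes called higher were 2642 for TGF-β in WT and 2298 for TGF-β in KO, and KO-TGF against WT-TGF had 1643 higher and 5408 lower. The members called lower with TGF-β were 1 in WT and 3 in KO, where the signs of Jund (-0.15 in WT, -0.18 in KO) and Fosl2 in KO (-0.072) changed. Fos changed sign, to -0.017 for TGF-β in WT and -0.015 for KO against WT in SD, and so did the interactions of Junb (-0.0046) and Jund (-0.026). Jund with TGF-β in WT was also at -0.0049 with the size factors of DESeq2 and at -0.0050 with DESeq2 itself, and Egr1, KO against WT in SD, was at 0.0043 with no filter. Of the members, 0 were called lower with TGF-β in KO with DESeq2 and 0 when only these groups were fitted, and between 0 and 1 with each library left out. With each library left out, Fosb with TGF-β in WT lay between -0.17 and 0.30, Jund between -0.017 and 0.024 in WT and between -0.012 and 0.078 in KO, and the interaction of Jund between -0.016 and 0.091. The causes were not tested. Replicate numbers do not pair the libraries: deviations of libraries with the same number had correlations between -0.01 and 0.07 over 12 pairs, and 7 of 12 libraries correlated best with their own number. With the replicate block the members called higher and lower were 6 and 0 for TGF-β in WT and 7 and 1 in KO. They were 1 and 5 for KO against WT in SD and 1 and 8 in TGF-β. With this block 4 members had a more negative response in KO, Fos included (adjusted p = 0.0414), while Fosb was also called for KO-TGF against WT-TGF (adjusted p = 0.0451). Depth limits the values of Fosb (18 to 47 counts a library), Atf3 (41 to 86), Fos (75 to 151) and, in SD cells, Arc (24 to 56) and Fosl1 (58 to 88).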
